A study of Homo sapiens with 15 samples.

Results

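The genes described here are 10 members of the Wnt pathway, chosen by symbol: the ligands WNT5A and WNT5B, the receptor FZD7, the secreted proteins DKK1, DKK3 and SFRP1 (grouped here as antagonists), the cytoplasmic regulator DACT1, the feedback inhibitor AXIN2, and the transcription factors LEF1 and TCF7. All 10 were found once in the MRC5 table, among 16382 listed genes, and once in the H196 table, among 16076. Wnt ligands bind Frizzled receptors together with the co-receptors LRP5 and LRP6, and in the canonical branch this spares beta-catenin from the AXIN-containing destruction complex, so that it can act with TCF and LEF factors on target genes. WNT5A and WNT5B are known mainly for signalling that does not pass through beta-catenin. DKK1 and SFRP1 restrain the pathway outside the cell, DACT1 and AXIN2 restrain it inside, and AXIN2, LEF1, TCF7 and DKK1 are themselves among the classical targets of the canonical branch.

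The libraries come from co-cultures of small cell lung cancer (SCLC) cells and lung fibroblasts, in which the partners shared medium across the porous membrane of a transwell insert for a week. MRC5 fibroblasts, which stood for cancer-associated fibroblasts (CAFs) in the study, were cultured by themselves (MRC5_Mo), below H69 cells of a neuroendocrine (NE) SCLC line (MRC5_coH69), or below H196 cells of a non-NE SCLC line (MRC5_coH196). H196 cells were cultured by themselves (H196_Mo) or below MRC5 cells (H196_Co). The study kept SCLC lines in RPMI and MRC5 cells in MEM, and its methods do not name the medium of the co-cultures. Between the mono-cultures, line and medium cannot be told apart. The part of any change of medium in the co-culture results was not tested. Each of the 5 groups has 3 libraries, and each cell type is represented by a single line. No transgene or drug is named for any group. Nothing in the labels says that the 3 libraries of a group came from separate cultures, so every p-value measures only the spread between these libraries. H69 cells were not sequenced here.

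MRC5 libraries held 18476890 to 19170560 counts and H196 libraries 16073597 to 17358349. All 8 fibroblast markers looked for (COL1A1, COL1A2, COL3A1, LUM, DCN, PDGFRB, THY1 and FAP) averaged at least 1 FPKM in each MRC5 group, and 0 of them did in the H196 groups. Of the 8, 7 were listed at all in the H196 table. Their summed level was 5106 to 5689 FPKM in MRC5_Mo, 5873 to 6068 in MRC5_coH69 and 2494 to 2641 in MRC5_coH196 cells, where COL1A1 (log2 fold change -1.57) and COL3A1 (-2.09) were called lower and PDGFRB (0.67) higher. The part of this shift in the results below was not tested. NE markers summed to 30.85 to 32.8 FPKM in H196 libraries, with 3 of 8 (CHGB, SYP and DLL3) at or above 1 FPKM, and all 5 non-NE markers (YAP1, REST, MYC, AXL and VIM) were above that level. These 5 also averaged at least 1 FPKM in each MRC5 group, so they do not set H196 cells apart from the fibroblasts. The MRC5_coH196 libraries also held low levels of genes typical of H196 cells. Whether these are H196 RNA or expression by the fibroblasts was not tested. A set of 33 genes with at least 20 FPKM in every H196 library and at most 0.05 FPKM in every MRC5_Mo library summed to 40.5, 47.6 and 2.93 FPKM in replicates 1, 2 and 3 of MRC5_coH196, or 0.440%, 0.517% and 0.0318% of their sum in H196_Co cells. The MRC5_coH69 libraries stood at 0.00152% to 0.00217%, and the choice of genes held the MRC5_Mo libraries low. Taken as H196 RNA, the shares in MRC5_coH196 libraries would add at most 0.149 FPKM to any of the 10 genes, that one being DKK3. They would add at most 0.0382 FPKM to DACT1. In the other direction, 38 MRC5 genes chosen the same way stood at 0.0190% to 0.0263% of their MRC5_coH196 level in H196_Co libraries. In H196_Mo libraries, which the choice held low, they stood at 0.0042% to 0.0080%.

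Promoter sequence was at hand for 6 of the 10 genes (DACT1, DKK1, LEF1, TCF7, WNT5A and WNT5B). The 250 bases before each RefSeq transcription start (GRCh38.p14) were searched on both strands for the heptamers CTTTGAA or CTTTGAT or CTTTGTA or CTTTGTT, which TCF and LEF factors are known to bind. Of 11 windows, 3 held a match, and 12% of 35114 human windows of that length hold one. All 3 are shown. They belong to DACT1, DKK1 and TCF7, genes with an adjusted p under 0.05 in both partners of the H196 and MRC5 co-culture. FZD7 was such a gene too, but no promoter sequence was at hand for it. A link between matches and these changes was not tested. Matches are in capitals, and AACAAAG is CTTTGTT read on the opposite strand.
DACT1, chr14:58633811-58634060, plus strand: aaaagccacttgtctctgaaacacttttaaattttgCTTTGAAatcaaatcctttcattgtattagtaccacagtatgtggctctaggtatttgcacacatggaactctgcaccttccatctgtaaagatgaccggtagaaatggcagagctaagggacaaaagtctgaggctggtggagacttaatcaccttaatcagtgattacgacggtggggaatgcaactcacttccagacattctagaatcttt
DKK1, chr10:52314031-52314280, plus strand: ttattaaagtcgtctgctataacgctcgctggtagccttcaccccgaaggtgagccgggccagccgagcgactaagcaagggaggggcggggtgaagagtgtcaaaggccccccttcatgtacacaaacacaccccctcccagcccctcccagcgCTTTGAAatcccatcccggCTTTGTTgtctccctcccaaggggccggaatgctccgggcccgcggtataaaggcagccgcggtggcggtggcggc
TCF7, chr5:134123368-134123617, plus strand: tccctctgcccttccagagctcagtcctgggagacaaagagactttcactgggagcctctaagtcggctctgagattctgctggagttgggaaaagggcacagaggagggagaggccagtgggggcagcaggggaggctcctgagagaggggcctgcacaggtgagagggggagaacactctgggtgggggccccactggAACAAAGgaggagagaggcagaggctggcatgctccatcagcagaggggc
The match of DACT1 begins at base -214 relative to the start, those of DKK1 at -95 and -76, and that of TCF7 at -50. The other windows of DACT1 (chr14:58637712-58637961 and chr14:58638587-58638836) and of TCF7 (chr5:134115363-134115612) held none of these letters, and neither did those of LEF1, WNT5A and WNT5B. A match is a string of letters and not a measured binding site.

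**Figure D1:**
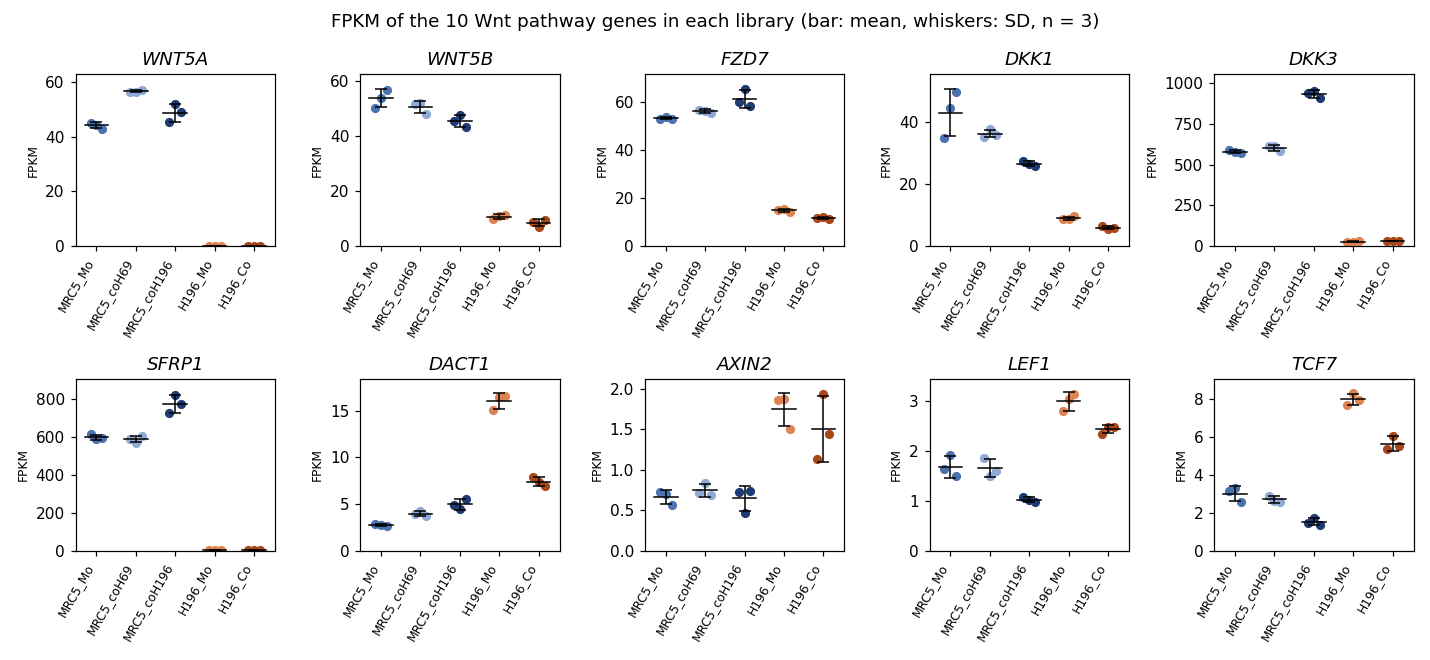
Level of each of the 10 genes in FPKM (vertical axis, linear and starting at 0, one scale per gene) in the 15 libraries, grouped along the horizontal axis. Points are libraries, horizontal bars the mean and whiskers the SD of 3 libraries. WNT5A sits at or near 0 in both H196 groups, DKK3 reaches 905.2 to 952 FPKM in MRC5_coH196 cells, and DACT1 rises from MRC5_Mo to MRC5_coH196 while it falls from H196_Mo to H196_Co.

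DACT1 changed in opposite directions in the partners, while DKK3 rose and TCF7 fell in the fibroblasts that faced H196 cells. DACT1 binds Dishevelled, the protein that carries the signal from Frizzled receptors inwards. Its level was 2.05 times that of mono-culture in MRC5_coH196 cells and 0.486 times in H196_Co cells. In MRC5_coH196 against MRC5_Mo cells, 2 of the 10 genes were called higher and 1 lower. A gene was called when its adjusted p was under 0.05 and its log2 fold change exceeded 0.58 in size, and 31.9% of the 12819 genes tested met this rule (17.2% higher and 14.7% lower), so the share among the 10 genes was close to that of all genes. An adjusted p under 0.05 alone was reached by 8 of the 10, against 74.3% of all genes, and the libraries did not overlap in CPM (normalised counts scaled to a common library size) for 8, against 75.5%. In H196_Co against H196_Mo cells 1 of 9 tested genes was called lower and 0 higher. There 3.86% of all 12806 genes tested were called (3.26% higher and 0.601% lower). Of the 9 genes, 4 had an adjusted p under 0.05 (19.8% of all genes) and 6 did not overlap (37.2%). In MRC5_coH69 against MRC5_Mo cells edgeR's quasi-likelihood test called 0 of 10, as did DESeq2, where edgeR called 0.554% of all genes (0.421% higher and 0.133% lower). An adjusted p under 0.05 was reached by 2 genes (6.7% of all genes), an unadjusted p under 0.05 by 4 (20.1%), and 3 did not overlap (25.7%). The median log2 fold change over the tested members was 0.23 in MRC5_coH196, 0.03 in MRC5_coH69 and -0.23 in H196_Co cells, and that over all genes was within 0.01 of 0 in each. Both fibroblast comparisons rest on the same MRC5_Mo libraries. The RNA is from bulk cultures, in which fewer cells with a transcript and less of it per cell cannot be told apart.

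**Figure D2:**
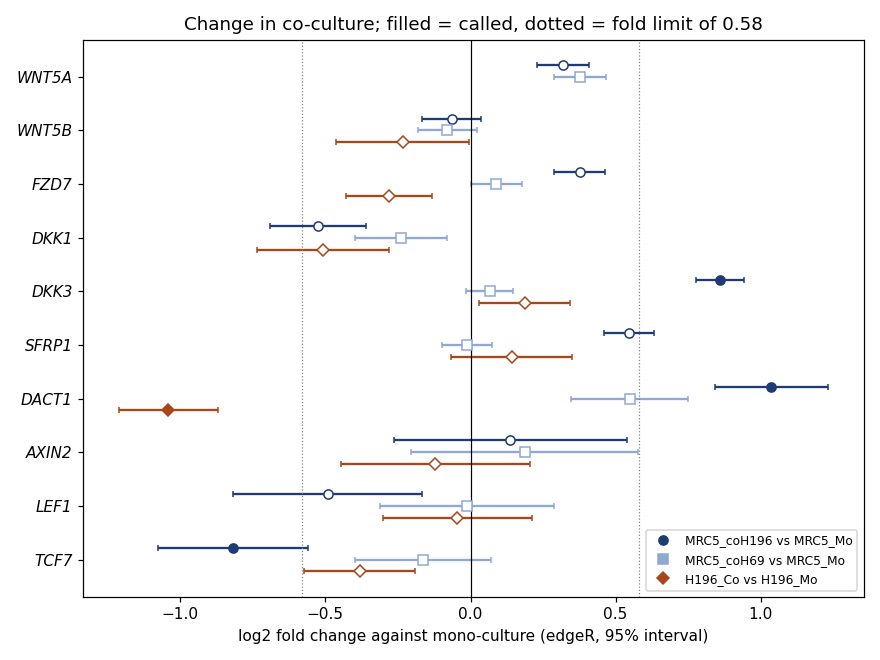
Log2 fold change of each gene against mono-culture on the horizontal axis, with 95% intervals from edgeR, for MRC5_coH196 (dark circles), MRC5_coH69 (light squares) and H196_Co cells (diamonds). Filled symbols are called and dotted lines mark the limit of 0.58. DACT1 stands at 1.04 in MRC5_coH196, 0.55 in MRC5_coH69 and -1.04 in H196_Co cells, and no interval of AXIN2 leaves 0.

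The ligands differed between the lines, WNT5A most. WNT5A (gene ID 7474, GRCh38.p13 chromosome 3, 55465715 to 55505262) read 45.1, 44.3 and 42.9 FPKM in the MRC5_Mo libraries, 56.4, 56.3 and 57.0 in MRC5_coH69 and 45.35, 51.9 and 48.9 in MRC5_coH196. Both co-cultures therefore lay above mono-culture in every library. The log2 fold change was 0.38 with H69 (standard error 0.0435, adjusted p = 2.29e-06) and 0.32 with H196 (0.0437, adjusted p = 4.61e-07), both under the limit for a call. The co-cultures did not differ from each other by this test (-0.06, 95% interval -0.15 to 0.03, adjusted p = 0.223). In H196 cells WNT5A was at the detection floor, with 0, 0 and 2 counts in the H196_Mo libraries and 0 in each H196_Co library. A count of 0 allows up to 3 counts, 0.174 to 0.178 CPM without TMM factors in the H196_Co libraries, by counting error alone. Scaled by library totals, without TMM factors, the 13362 counts of the MRC5_Mo libraries against 2 of H196_Mo make a ratio of 6040 (exact 95% counting interval 1672 to 49883). On the same scale MRC5_coH196 cells were at least 4464-fold higher than H196_Co cells, with 3 counts over the group as the floor. With so few counts the gene was not tested in H196 cells. WNT5B (81029, chromosome 12, 1529856 to 1647213) read 50.4, 54.1 and 57.0 FPKM in MRC5_Mo, 51.8, 52.1 and 48.0 in MRC5_coH69, and 45.5, 47.8 and 43.4 in MRC5_coH196 cells. Its count test gave -0.06 (95% interval -0.17 to 0.04, adjusted p = 0.238) with H196 and -0.08 (-0.18 to 0.02, adjusted p = 0.401) with H69. In H196 cells it read 9.69, 11.0 and 11.4 FPKM alone and 8.74, 7.08 and 9.63 in co-culture, a change of -0.23 (standard error 0.110, adjusted p = 0.141). The highest co-culture library lay just under the lowest mono-culture library on the FPKM scale, while the CPM values overlapped.

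FZD7 is a Frizzled receptor that several Wnt ligands can use. It read 53.0, 54.0 and 53.25 FPKM in MRC5_Mo, 56.8, 56.6 and 55.4 in MRC5_coH69 and 60.3, 65.6 and 58.4 in MRC5_coH196 cells (8324, chromosome 2, 202033855 to 202038441). The 3 groups did not overlap. The log2 fold change was 0.38 with H196 (standard error 0.0425, adjusted p = 1.85e-08) and 0.09 with H69 (95% interval 0.00 to 0.18, adjusted p = 0.246). In H196 cells it was lower in co-culture, at 11.6, 12.0 and 11.3 FPKM against 14.9, 15.55 and 14.2 alone, and again without overlap. That change was -0.28 (standard error 0.0713, adjusted p = 0.00891), under the limit for a call.

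The secreted antagonists were abundant fibroblast transcripts, and their values differed in direction. DKK3, a divergent member of the Dickkopf family, read 589, 579.8 and 570.1 FPKM in MRC5_Mo, 611, 612 and 581 in MRC5_coH69, and 941, 952 and 905.2 in MRC5_coH196 cells (27122, chromosome 11, 11963036 to 12011046). Every MRC5_coH196 library was far above the other 6, which overlapped. DKK3 rose by 0.86 with H196 (standard error 0.0402, adjusted p = 9.09e-16, called), and the value with H69 was 0.07 (95% interval -0.02 to 0.15, adjusted p = 0.391). H196 cells held far less of it, 24.7, 27.1 and 28.4 FPKM alone and 27.9, 29.1 and 29.4 in co-culture, with 0.19 for the difference (adjusted p = 0.0848). SFRP1 (6422, chromosome 8, 41261949 to 41309473), which binds Wnt ligands in the extracellular space, read 613, 587 and 595 FPKM in MRC5_Mo, 589.7, 569 and 604 in MRC5_coH69, and 727, 822 and 774 in MRC5_coH196 cells. Only with H196 was it clear of the MRC5_Mo range, at 0.55 (standard error 0.0418, adjusted p = 1.52e-11), a little under the limit, and 0.59 and called without MRC5_coH196 replicate 1. With H69 the value was -0.01 (95% interval -0.10 to 0.07, adjusted p = 0.908). In H196 cells SFRP1 was at 2.79, 2.61 and 2.67 FPKM alone and 2.83, 2.87 and 2.74 in co-culture, 0.14 apart (adjusted p = 0.336). Taken as MRC5 RNA, the share of MRC5 genes given above would add 0.147 to 0.203 FPKM of SFRP1 and 0.177 to 0.245 FPKM of DKK3 to the H196_Co libraries. Its part in these differences was not tested.

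DKK1, which blocks the LRP co-receptors, was lower where DKK3 and SFRP1 were higher. It read 35.0, 44.6 and 49.8 FPKM in MRC5_Mo, 35.4, 37.7 and 36.0 in MRC5_coH69 and 27.4, 26.5 and 25.9 in MRC5_coH196 cells (22943, chromosome 10, 52314281 to 52317657). Replicate 1 of MRC5_Mo was as low as the MRC5_coH69 libraries, but all MRC5_coH196 libraries were below it. The change was -0.53 with H196 (standard error 0.0800, adjusted p = 2.11e-06) and -0.24 with H69 (standard error 0.0772, adjusted p = 0.0625). Without MRC5_Mo replicate 1 the former was -0.65 and past the limit for a call. H196 cells also held less of it in co-culture, 6.53, 5.65 and 5.74 FPKM against 8.75, 8.61 and 9.55 alone, with no overlap. There the change was -0.51 (standard error 0.109, adjusted p = 0.00265), and without H196_Co replicate 1 it was -0.59 and called.

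DACT1 (51339, chromosome 14, 58634061 to 58648321) was the one gene of the 10 called in both partners. In the fibroblasts it read 2.83, 2.74 and 2.64 FPKM in MRC5_Mo, 3.88, 4.29 and 3.73 in MRC5_coH69 and 4.92, 4.41 and 5.58 in MRC5_coH196 cells. The groups formed 3 steps without overlap. DACT1 was higher by 1.04 with H196 (95% interval 0.84 to 1.23, adjusted p = 3.73e-10, called) and by 0.55 with H69 (0.35 to 0.75, adjusted p = 0.000738), just under the limit. Without MRC5_coH69 replicate 3 the value with H69 was 0.59 and called. The co-cultures differed by 0.49 (standard error 0.0887, adjusted p = 2.7e-05). The highest level of that group was in replicate 3. Replicates 1 and 2 held more of the H196 genes described above. With both left out, the value against MRC5_Mo was 1.22, from 1 library whose spread is taken to be that of the other groups. The part of any H196 RNA in this result was not tested further. In H196 cells DACT1 started higher, at 15.1, 16.5 and 16.6 FPKM, and stood at 7.91, 7.32 and 6.94 in co-culture. No library of one group came near the other, on 871 to 1029 counts alone and 423 to 490 in co-culture. The log2 fold change was -1.04 (95% interval -1.21 to -0.87, adjusted p = 1.51e-08, called).

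AXIN2, the destruction complex scaffold that is widely used as a readout of canonical signalling, was low in both lines and had no detectable change (8313, chromosome 17, 65528563 to 65561648). It read 0.73, 0.70 and 0.56 FPKM in MRC5_Mo, 0.71, 0.83 and 0.69 in MRC5_coH69 and 0.73, 0.47 and 0.74 in MRC5_coH196 cells, on 33 to 60 counts per library. Its log2 fold changes were 0.14 with H196 (95% interval -0.26 to 0.54, adjusted p = 0.532) and 0.19 with H69 (-0.20 to 0.58, adjusted p = 0.653). In H196 cells it read 1.86, 1.87 and 1.51 FPKM alone and 1.13, 1.94 and 1.44 in co-culture, with -0.12 for the difference (-0.45 to 0.20, adjusted p = 0.621). The libraries overlapped in all of these comparisons, and at this depth a change within these intervals could not be seen.

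LEF1 and TCF7 bind DNA as partners of beta-catenin, and both had lower values in MRC5_coH196 cells. LEF1 (51176, chromosome 4, 108047548 to 108168932) read 1.64, 1.92 and 1.49 FPKM in MRC5_Mo, 1.86, 1.5 and 1.61 in MRC5_coH69 and 1.08, 1.02 and 0.97 in MRC5_coH196 cells. Its change with H196 was -0.49 (standard error 0.158, adjusted p = 0.00721) and -0.01 with H69 (95% interval -0.31 to 0.29, adjusted p = 0.978). These rest on few reads, 42 to 50 in each MRC5_coH196 library. In H196 cells LEF1 read 2.80, 3.04 and 3.16 FPKM alone and 2.35, 2.48 and 2.49 in co-culture. The FPKM values did not overlap, yet the CPM values did. CPM from library totals only, without TMM factors, also overlapped (6.53, 7.09 and 7.28 alone against 6.21, 6.48 and 6.565 in co-culture). The count test, which used TMM factors, gave -0.05 (-0.30 to 0.21, adjusted p = 0.829). TCF7 (6932, chromosome 5, 134114681 to 134148229) read 3.14, 3.33 and 2.57 FPKM in MRC5_Mo, 2.90, 2.62 and 2.58 in MRC5_coH69 and 1.47, 1.73 and 1.37 in MRC5_coH196 cells. It fell by 0.82 with H196 (standard error 0.126, adjusted p = 2.38e-06, called), and with H69 the value was -0.16 (-0.40 to 0.07, adjusted p = 0.462). In H196 cells TCF7 read 7.70, 8.31 and 7.96 FPKM alone and 5.37, 6.08 and 5.53 in co-culture, a difference of -0.38 (standard error 0.0914, adjusted p = 0.00599) with no overlap but under the limit.

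Fibroblasts facing H196 cells were also set against those facing H69 cells. MRC5_coH196 differed from MRC5_coH69 cells with an adjusted p under 0.05 for 7 of the 10 genes (72.3% of all genes), without overlap for the same number (73.1% of all genes), and with a call for 2, DKK3 (0.79, adjusted p = 5.59e-15) and TCF7 (-0.65, adjusted p = 6.89e-05), where 28.2% of all genes were called (15.2% higher and 13.1% lower). SFRP1 differed by 0.56, DACT1 by 0.49, LEF1 by -0.48, FZD7 by 0.29 and DKK1 by -0.29. WNT5A, WNT5B and AXIN2 had intervals that include 0 (-0.15 to 0.03, -0.09 to 0.12 and -0.44 to 0.34).

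Whether the partners of the H196 and MRC5 co-culture changed differently was tested as an interaction in a model of all 15 libraries, over the 11743 genes that passed the filter in both lines. Of 9 members tested, 3 were called, all with the larger value in MRC5, against 26.4% of all genes (12.4% higher in MRC5 and 13.9% lower). DACT1 led, with the effect in MRC5 exceeding that in H196 cells by 2.05 (standard error 0.127, adjusted p = 4.09e-13), followed by DKK3 with 0.65 (0.0812, adjusted p = 1.85e-07) and FZD7 with 0.63 (0.0749, adjusted p = 7.55e-08). SFRP1 (0.38, adjusted p = 0.00253), TCF7 (-0.46, adjusted p = 0.0126) and LEF1 (-0.47, adjusted p = 0.0418) also had an adjusted p under 0.05, as did 57% of all genes, with differences under the limit. DKK1 showed no detectable difference between the partners (-0.04, 95% interval -0.35 to 0.26, adjusted p = 0.828), nor did WNT5B (0.14, -0.10 to 0.38) or AXIN2 (0.23, -0.32 to 0.78).

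**Figure D3:**
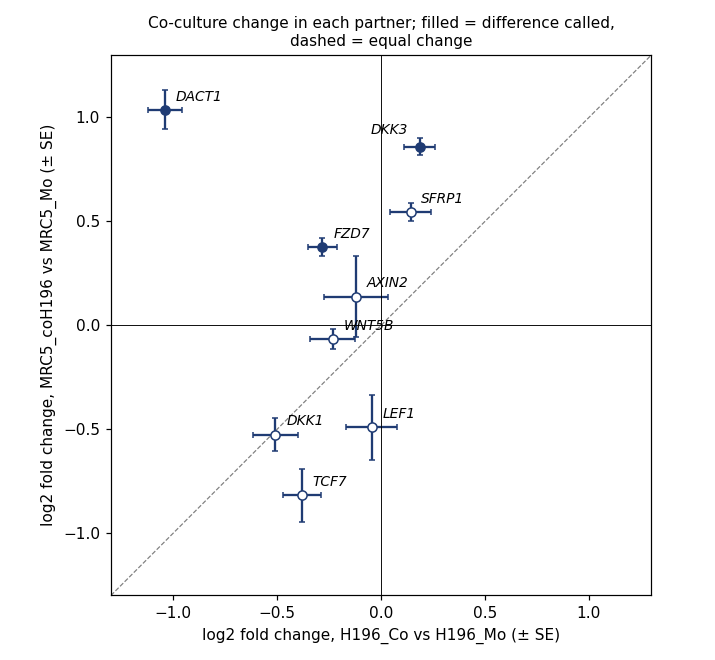
Log2 fold change in MRC5_coH196 against MRC5_Mo cells (vertical axis) plotted against that in H196_Co against H196_Mo cells (horizontal axis) for the 9 genes tested in both lines, with standard errors; the dashed line marks equal change, and filled points differ by a called interaction. DACT1 lies at 1.04 in MRC5 and -1.04 in H196 cells, FZD7 at 0.38 and -0.28, and DKK1 on the dashed line at -0.53 and -0.51.

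Grown alone, the lines differed for all 10 genes at an adjusted p under 0.05 (86.6% of all genes), without overlap for all 10 (87.6%), and for 9 by a call (61.7%, or 31.5% higher in H196 and 30.2% lower). H196_Mo cells had more DACT1 (log2 difference 2.11, standard error 0.0900), AXIN2 (0.94, standard error 0.184) and TCF7 (0.94, standard error 0.0972) than MRC5_Mo cells, and 0.44 more LEF1 (adjusted p = 0.00228), which was under the limit. They had less SFRP1 (-8.24), DKK3 (-4.88), WNT5B (-2.81), DKK1 (-2.71) and FZD7 (-2.28). WNT5A was lower by a difference of -12.7 in this model, on the few H196_Mo counts given above. In MRC5_Mo cells the order of mean FPKM was SFRP1 (598 ± 13.2, SD, n = 3), DKK3 (579.5 ± 9.24), WNT5B (53.8 ± 3.30), FZD7 (53.4 ± 0.548), WNT5A (44.1 ± 1.10), DKK1 (43.1 ± 7.49), TCF7 (3.01 ± 0.396), DACT1 (2.74 ± 0.0950), LEF1 (1.68 ± 0.218) and AXIN2 (0.663 ± 0.0907). SFRP1 and DKK3, WNT5B and FZD7, WNT5A and DKK1, and TCF7 and DACT1 overlapped in this order. In H196_Mo cells the order was DKK3 (26.7 ± 1.91), DACT1 (16.05 ± 0.815), FZD7 (14.9 ± 0.675), WNT5B (10.7 ± 0.884), DKK1 (8.97 ± 0.507), TCF7 (7.99 ± 0.306), LEF1 (3 ± 0.183), SFRP1 (2.69 ± 0.0917), AXIN2 (1.75 ± 0.205) and WNT5A (0.00667 ± 0.0115). There DACT1 and FZD7 overlapped, whereas in H196_Co cells DACT1 (7.39 ± 0.489) lay below FZD7 (11.6 ± 0.356) and overlapped WNT5B (8.48 ± 1.29).

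Across all 15 libraries, the genes most like DACT1 in log2 CPM were AMIGO2 (Pearson r = 0.948), BMF (0.945) and RASSF2 (0.937), and 14 of 9792 genes compared had r above 0.9. For AXIN2 they were ARID1B (0.906), CASKIN2 (0.905) and PTBP1 (0.902), with 4 genes above 0.9. LEF1 was most like C6orf47 (0.980), METTL16 (0.978) and CCAR2 (0.976), and TCF7 most like C6orf47 (0.983), FADS1 (0.981) and ABRACL (0.981). The other 6 members each had 2549 to 2786 genes above 0.9, led by CLDN11, GJA1 and PDGFRA for WNT5A and by COL6A1, COL6A2 and TGFBI for DKK3. The 15 libraries fall into the 2 lines, and libraries of a line share their table, so such a value is set largely by the difference between the lines.

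The wider pathway was read from 8 lists with 101 genes, the 10 genes above included, of which 67 were tested in MRC5 cells. In MRC5_coH196 against MRC5_Mo cells 12 were called higher and 6 lower (26.9%, against 31.9% of all genes), with a median log2 fold change of 0.21 against 0.00 over all genes. Without the 10 genes, 10 of 57 were called higher and 5 lower (26.3%), and the median was again 0.21. Of 8 ligands tested, WNT16 was higher (7.39 ± 0.607 against 2.32 ± 0.373 FPKM, SD, n = 3, log2 fold change 1.85), WNT2B was higher by 0.93 and WNT2 lower by a change of -3.43, with 1 to 6 counts in each MRC5_coH196 library and 35 to 59 in each MRC5_Mo library. PORCN, the enzyme that acylates Wnt ligands, was higher by 0.62. WLS, the other gene of ligand processing and secretion tested, went the other way, from 117.7 to 70.9 mean FPKM. Its change of -0.575 (edgeR, adjusted p = 3.88e-12) was a little under the limit for a call. Among 14 receptors FZD5 (2.23, with 41 to 69 counts a library, from 9 to 19) and ROR2 (0.58) were higher and ROR1 (-1.29) was lower, the last pair being receptors that WNT5A can use. Among 7 secreted antagonists and their receptors DKK3 and the Dickkopf receptor KREMEN1 (0.85) were higher, while DKK2 (-1.65) and APCDD1 (-1.60) were lower, both with fewer than 13 counts in each MRC5_coH196 library. Of 19 cytoplasmic genes DACT1, its relative DACT3 (9.50 ± 0.868 against 5.40 ± 0.133 FPKM, 0.99) and the kinase CSNK1E (0.80) were higher and 0 lower. Of 13 nuclear factors TLE2, a corepressor of TCF proteins, was higher by 1.28 and TCF7L1 by 0.64, and TCF7 was lower. TLE2 rests on few reads, 9 to 19 counts in each MRC5_coH196 library and 6 to 7 in each MRC5_Mo library. It read 14.7 ± 0.406 FPKM in H196_Co cells, against 0.320 ± 0.111 in MRC5_coH196 cells. The part of any H196 RNA in the rise of TLE2 was not tested. None of 8 tested canonical feedback targets was called higher, against 17.2% of all genes. TCF7, APCDD1 and TNFRSF19 (10.9 ± 0.605 against 21.0 ± 1.75 FPKM, -0.78) were lower, as were 14.7% of all genes. This list includes AXIN2, LEF1, DKK1 and TCF7 from the 10 genes described here. Its median of -0.51 falls between the values of DKK1 (-0.53) and LEF1 (-0.49) already given. The 2 R-spondin and receptor turnover genes tested were not called. The calls of WNT2B, PORCN, ROR2 and TCF7L1 were lost when log2 FPKM values were tested with either pseudocount, that of PORCN also without MRC5_Mo replicate 2 (0.57) or MRC5_coH196 replicate 1 (0.54), and that of ROR2 also without MRC5_Mo replicate 3, MRC5_coH69 replicate 2, or MRC5_coH196 replicate 2 or 3 (0.50 to 0.58).

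In MRC5_coH69 cells 0 of the 67 genes were called, by edgeR as by DESeq2, where 0.554% of all genes were. Among them 5 (7.46%, against 6.7% of all genes) had an adjusted p under 0.05 by edgeR, and 11 (16.4%, against 20.1%) an unadjusted p under 0.05. Without the 10 genes described here these were 3 of 57 (5.26%) and 7 of 57 (12.3%).

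In H196_Co against H196_Mo cells 5 of 70 tested genes of these lists were called higher and 1, DACT1, lower (8.57%, against 3.86% of all genes). The median was 0.02 against 0.00 over all genes. Without the 10 genes described here 5 of 61 were called higher and 0 lower (8.2%), with a median of 0.07. Of the 14 canonical feedback targets 9 passed the filter, and SP5, NOTUM, NKD1 and NKD2 were called higher (3.26% of all genes were) while 0 were lower; the median of the 9 was 0.25. SP5, a transcription factor induced by canonical signalling, read 2.24 ± 0.322 against 1.11 ± 0.142 FPKM (SD, n = 3), a log2 fold change of 1.04 (adjusted p = 0.000292). NOTUM, an enzyme that inactivates Wnt ligands, read 1.88 ± 0.223 against 0.983 ± 0.180 FPKM (1.01, adjusted p = 0.00104). NKD2, which like NKD1 binds Dishevelled, read 4.07 ± 0.216 against 2.48 ± 0.539 FPKM (0.78, adjusted p = 0.000918). NKD1 had 23 to 29 counts in co-culture libraries and 7 to 11 in the others (1.52, adjusted p = 0.00104), and was not called on either FPKM scale, where its values are at or below 0.10. AXIN2, LEF1, DKK1 and TCF7, which stand on the same list, were not called. FRZB, a secreted antagonist, was higher by 1.08 (adjusted p = 0.0186) with 17 to 22 counts in each co-culture library. It was not called by DESeq2, nor without H196_Mo replicate 1 or 2 or H196_Co replicate 1. The co-culture effects on these lists were compared between the lines only through the genes tested in both, which SP5, NKD1, NKD2 and NOTUM were not.

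**Figure D4:**
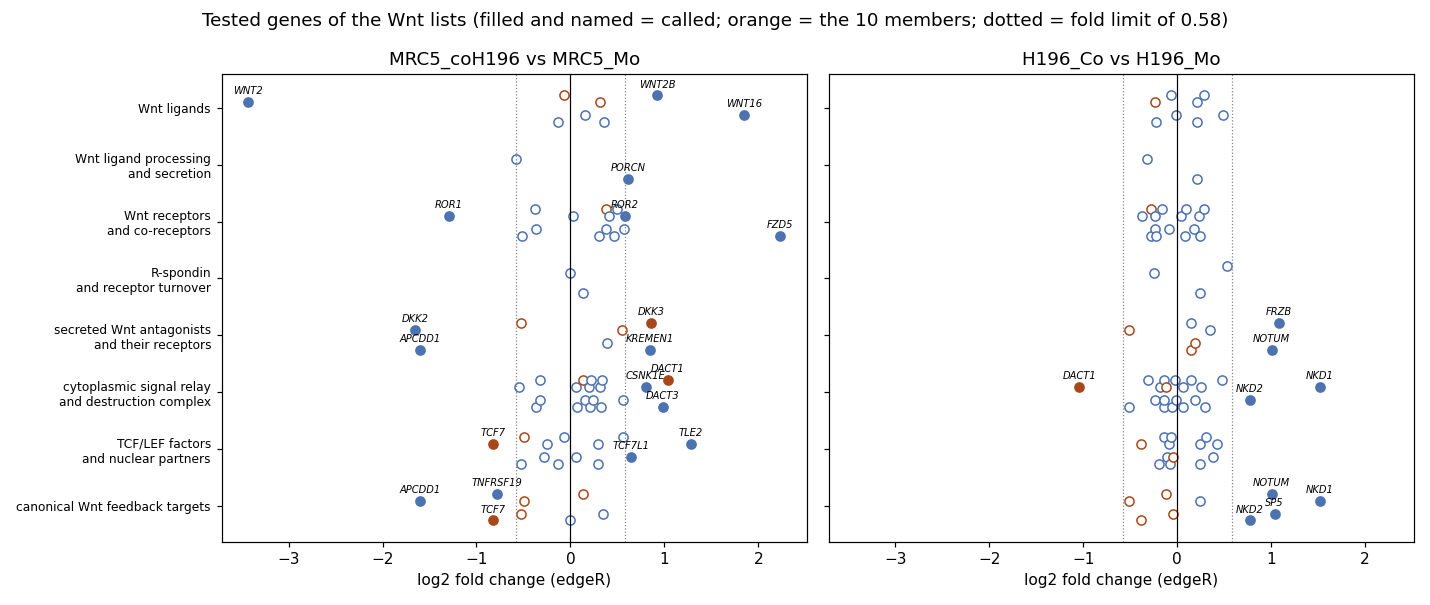
Log2 fold change (horizontal axis) of every tested gene of the 8 Wnt lists (rows) in MRC5_coH196 against MRC5_Mo (left) and H196_Co against H196_Mo cells (right). Filled points are called and named, orange marks the 10 genes described here, and a gene on several lists appears in each. In the feedback target row TCF7, TNFRSF19 and APCDD1 lie to the left in MRC5, and NKD1, SP5, NOTUM and NKD2 to the right in H196 cells.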

How the data were processed

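RNA of 15 libraries was sequenced on a BGISEQ platform. Per the submitters' processing notes and methods, the authors cleaned reads with SOAPnuke, aligned them to GRCh38.p13 with HISAT2 2.1.0 and Bowtie2 2.3.4.3, and quantified genes with RSEM 1.3.1. The deposited tables hold, per gene and library, expected counts (RSEM estimates, 93.7% whole numbers in the MRC5 table and 92.1% in the H196 table). The deposited FPKM values were made by the authors per length and library size. The authors' own comparison columns (fold changes, p and q values) and 30 columns of TPM and normalised counts were not used.

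Expected counts were rounded, filtered with filterByExpr and scaled by TMM, and tested with edgeR 4.0.16 (quasi-likelihood test, R 4.3.3) with Benjamini-Hochberg adjustment over all genes tested, 1 model per table. Standard errors were derived from the F statistic. A gene was called at an adjusted p under 0.05 with a log2 fold change above 0.58 in size. The interaction and the comparison of lines used 1 model of the 15320 genes in both tables. Levels of the lines were thus set across tables quantified separately. Tests run on simulated counts recovered 200 of 200 genes changed by 1.5 (log2) in each of 3 comparisons, with 4 to 8 false calls by edgeR. The changed genes were drawn only from genes with higher mean counts. Recovery of changes near the limit of 0.58, or of genes with few counts, was therefore not tested. Alternatives were DESeq2 1.42.0, limma 3.58.1 on log2 FPKM values with a pseudocount of 1 or 0.1, changed filters, limits and scalings, a replicate block and leaving out each library. Using MRC5_coH196 replicate 3 alone was added after the data were seen. Library totals ran from 16073597 to 19170560 counts. Intervals and floors from counts cover counting error only. Promoters were taken from RefSeq (GRCh38.p14).

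The 10 genes, the Wnt lists and the tests were chosen with earlier results of these data known. Beside the 10 genes and WLS, the text names list genes that were called, at most the 3 largest rises and falls per list. It also names the 3 genes most like each member by Pearson r over genes of at least 10 CPM. Python 3.11.15, pandas 2.3.3 and matplotlib 3.10.9 were used for tables and plots.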

Additional observations from a re-analysis of the deposited data

Results flagged for a closer look

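The co-culture effect was compared between the MRC5 and H196 partners by the interaction term of edgeR's quasi-likelihood test. Of 60 genes of the Wnt lists tested, 33 (55%) had an adjusted p under 0.05, against 57% of all genes, and 16 were also past the fold limit of 0.58 and so called (26.7%, against 26.4% of all genes). The 19 values given here are the 6 of the 10 described genes with an adjusted p under 0.05, called or not, and the 13 other genes that were called. Each is given as the log2 fold change in MRC5 (with H196) minus that in H196 cells. Among the 10 genes these were DACT1 (2.05), DKK3 (0.65), FZD7 (0.63), SFRP1 (0.38), TCF7 (-0.46) and LEF1 (-0.47), the last 3 being under the fold limit for a call. Among ligands, receptors and the Dickkopf receptor they were FZD5 (2.12), WNT16 (1.84), ROR2 (0.84), WNT2B (0.69), KREMEN1 (0.67), FZD1 (0.64), FZD8 (-0.77) and ROR1 (-0.95). Among intracellular genes they were TLE2 (0.87), DACT3 (0.77), TNKS (0.67), BCL9L (0.64) and CTNNBIP1 (-0.80). The adjusted p was close to the limit for TLE2 (0.0459), LEF1 (0.0418) and ROR2 (0.0403). TLE2 had 6 to 7 counts in each MRC5_Mo library and 9 to 19 in each MRC5_coH196 library. Calls were lost without H196_Mo replicate 3 for DACT3 (0.49), without H196_Co replicate 1 for BCL9L (0.56), and without H196_Mo replicate 2, H196_Co replicate 1 or MRC5_Mo replicate 2 for WNT2B (0.54 to 0.61). That of ROR2 was lost when any 1 of 6 libraries was left out (H196_Mo replicates 1 and 3, H196_Co replicate 2, MRC5_Mo replicates 1 and 3, MRC5_coH196 replicate 3), with the replicate block and with DESeq2. That of TLE2 was lost with DESeq2 and when any 1 of 9 libraries was left out, all those of H196 and MRC5_Mo cells except H196_Mo replicate 1 and H196_Co replicate 3, and MRC5_coH196 replicates 1 and 3 (0.71 to 0.92). With MRC5_coH196 replicate 3 alone FZD8 was at -0.52 and not called, in a fit where that 1 library is assumed to vary like the other groups. No group has the 4 samples that a search for single outlying libraries needs. The causes of these differences were not tested.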

How the results depend on the processing

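With the limits of call and scale varied, 45 counts of called members in other settings were within 1.5 times the reported count, and 11 were not. With no fold limit the counts were 8 (MRC5_coH196 vs MRC5_Mo), 2 (MRC5_coH69 vs MRC5_Mo), 7 (MRC5_coH196 vs MRC5_coH69), 4 (H196_Co vs H196_Mo) and 6 (interaction). With a fold limit of 1 they were 1, 0 and 1 for MRC5_coH196 vs MRC5_Mo, vs MRC5_coH69 and the interaction. On log2(FPKM + 0.1) 5 were called in MRC5_coH196 vs MRC5_Mo, with DKK1 (-0.68) and LEF1 (-0.66) added, and 2 in H196_Co vs H196_Mo. On log2(FPKM + 1) 1 was called in MRC5_coH196 vs MRC5_coH69. Over all genes these 3 tests called 4306 of 12819, 417 of 12806 and 2567 of 12819. The FPKM scales shifted the median of all genes in MRC5_coH196 vs MRC5_Mo by -0.13 and -0.18.

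Without 1 library the counts ranged from 3 to 4, 0 to 1, 2 to 3, 1 to 2 and 3 to 3 in the same order. Values of genes that were not called turned sign in some settings. AXIN2 in MRC5_coH196 vs MRC5_Mo was -0.02 and -0.05 on the FPKM scales, WNT5B vs MRC5_coH69 was -0.15 on both, and the interaction of DKK1 was 0.00 with DESeq2 size factors and the Wald test. With MRC5_coH196 replicate 3 alone, a group of 1 library that is assumed to vary like the other groups, AXIN2 vs MRC5_coH69 was 0.16 and WNT5B -0.05, and 4 members passed the limits vs MRC5_Mo (LEF1 added, -0.59). Leaving out 1 library gave -0.03 to 0.01 for SFRP1 and -0.09 to 0.06 for LEF1 in MRC5_coH69 vs MRC5_Mo, -0.16 to 0.16 for AXIN2 and -0.02 to 0.05 for WNT5B in MRC5_coH196 vs MRC5_coH69, -0.32 to 0.03 for AXIN2 in H196_Co, and -0.17 to 0.08 for DKK1 in the interaction. The cause was not tested.

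Same-numbered libraries showed no clear likeness (correlations of deviations -0.15 to 0.08), and pairs with different numbers ran from -0.14 to 0.20. A pairing under other numbers was not tested. A replicate block left the counts of called members at 3, 0, 2, 1, 3 and 9, and over all genes 471 against 494 were called in H196_Co. Over all genes no fold limit and a limit of 1 called 9522 and 1564 in MRC5_coH196 vs MRC5_Mo, 859 and 9 in MRC5_coH69 vs MRC5_Mo, 9269 and 1353 vs MRC5_coH69, 2538 and 147 in H196_Co, and 6699 and 1001 in the interaction. DESeq2 called 44 and log2(FPKM + 1) 18 of all genes in MRC5_coH69 vs MRC5_Mo, against 71, and log2(FPKM + 1) 195 in H196_Co. AXIN2, LEF1 and the list genes with under 30 counts per library are limited by depth.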
